A study of Mus musculus with 9 samples.

Results

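Ccnd1, Ccnd3, Cdk4 and Cdkn2c are 4 genes that control the G1 phase of the cell cycle. They were chosen by symbol, for G1 control in cells given a CDK inhibitor, and all 4 were among the 251 genes of the authors' dinaciclib table. EHE17 cells are a mouse endothelial tumour line with the genotype TC+/+ Cdkn2a -/-. They received dinaciclib at 300 nM for 16 h, MGH-CP1 at 10 µM for 16 h, or DMSO vehicle, with 3 biological replicates in each of the 3 groups. All groups carried the Cdkn2a deletion, so that p16INK4a, a sister inhibitor of the one encoded by Cdkn2c, was missing throughout. The labels do not state how many clones the line holds or what drives the TC allele. None of the 4 genes was in the authors' table for MGH-CP1, and their levels with that compound were not analysed here. The values below therefore set 3 dinaciclib libraries against 3 vehicle libraries.

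D-type cyclins are the regulatory subunits that accumulate when growth factors act on a resting cell. They bind and activate the kinases CDK4 and CDK6, which phosphorylate the retinoblastoma protein and so free E2F factors to switch on genes for DNA synthesis. INK4 proteins, among them p18INK4c from Cdkn2c, bind CDK4 and CDK6 and keep them from the cyclin. D cyclin messages are short-lived in many cells and follow the supply of mitogens. Dinaciclib blocks several cyclin-dependent kinases, including CDK1, CDK2, CDK5 and CDK9, the last of which releases RNA polymerase II into elongation.

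Transcripts of both D cyclins and of their kinase partner were higher with dinaciclib, and the transcript of the kinase inhibitor was lower. On the log2 scale the change was 2.70 for Ccnd1, 2.27 for Ccnd3, 1.07 for Cdk4 and −2.78 for Cdkn2c. Values are normalised counts, that is, reads per gene divided by the authors' size factor of the library, and give each message relative to the rest of its library. The dinaciclib libraries were shallow, with 2541162 to 3316779 counts, against 31852117 to 40020833 in vehicle. In such bulk libraries fewer cells of a type and less RNA per cell cannot be told apart, and RNA per cell was not among the measurements. The table lists only genes that the authors had found changed on these same libraries, with log2 fold changes no smaller in size than 1.00, so that a call for a listed gene is no independent evidence. In a quasi-likelihood fit (edgeR, Benjamini-Hochberg adjusted over the table, threshold 0.05), 100% of the 248 tested genes of the table passed, 25% higher and 75% lower. All 4 members were tested and passed, which is the background rate.

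Ccnd1 encodes cyclin D1, the D cyclin most often amplified in tumours (ENSMUSG00000070348, chromosome 7, 144929931 to 144939925, minus strand). It had 45915, 45542 and 52424 normalised counts in the dinaciclib libraries, against 6794, 7288 and 8022 in the vehicle libraries. The third dinaciclib library was the highest, and the lowest dinaciclib library stood far above the highest vehicle library. The rise was 6.51-fold, a log2 change of 2.70 with SE 0.11 (adjusted p = 1.04e-07, edgeR quasi-likelihood, Benjamini-Hochberg). Ccnd1 took 0.510% ± 0.0431 of all counted reads with dinaciclib and 0.0714% ± 0.00609 in vehicle (SD, n = 3 each). The reads behind it were 44380 over the 3 dinaciclib libraries and 76183 over the 3 vehicle libraries, so that counting error was 0.791% to 0.897% per library with dinaciclib and 0.567% to 0.691% in vehicle. The spread between libraries was larger, 8.07% with dinaciclib and 8.39% in vehicle (SD over mean, n = 3 each).

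Ccnd3 encodes cyclin D3, which can stand in for cyclin D1 at CDK4 and CDK6 (ENSMUSG00000034165, chromosome 17, 47505051 to 47599691, plus strand). It had 8125, 7016 and 9532 normalised counts in the dinaciclib libraries, against 1772, 1633 and 1721 in the vehicle libraries. The groups did not overlap, and the second dinaciclib library was the lowest of its group. The rise was 4.81-fold, a log2 change of 2.27 with SE 0.12 (adjusted p = 2.87e-07, edgeR, as above). Its spread among dinaciclib libraries was 15.3%, against 4.11% among vehicle libraries (SD over mean, n = 3 each).

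Cdk4 encodes the catalytic partner of the D cyclins (ENSMUSG00000006728, chromosome 10, 127063534 to 127067920, plus strand). It had 6946, 5981 and 7410 normalised counts in the dinaciclib libraries, against 3344, 3170 and 3198 in the vehicle libraries. The groups did not overlap, and the second dinaciclib library was again the lowest. The rise was 2.09-fold, a log2 change of 1.07 with SE 0.09 (adjusted p = 6.59e-06, edgeR, as above). This put Cdk4 just inside the limit for entry to the table: of the 62 tested genes that were higher, only 2 had a smaller change. Without dinaciclib replicate 3 its log2 change was 0.997 (adjusted p = 4.26e-05, edgeR). That is just below 1.004, the smallest change by the authors' values in the table.

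Cdkn2c encodes p18INK4c, an inhibitor of CDK4 and CDK6 built of ankyrin repeats (ENSMUSG00000028551, chromosome 4, 109660876 to 109667189, minus strand). It had 104, 68.5 and 26.2 normalised counts in the dinaciclib libraries, against 427, 444 and 473 in the vehicle libraries. All dinaciclib libraries lay below all vehicle libraries, and the third was the lowest. The fall was 6.86-fold, a log2 change of −2.78 with SE 0.35 (adjusted p = 7.18e-05, edgeR, as above). It rested on 28, 24 and 8 reads with dinaciclib, against 1314, 1471 and 1834 in vehicle. The exact Poisson interval (95%, counting error only) reached 68.8 to 150 normalised counts in the first dinaciclib library and 11.3 to 51.6 in the third, so these libraries differed from each other by more than counting error. Even the upper bound of the first lay below the lower bound of 404 in the lowest vehicle library.

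**Figure D1:**
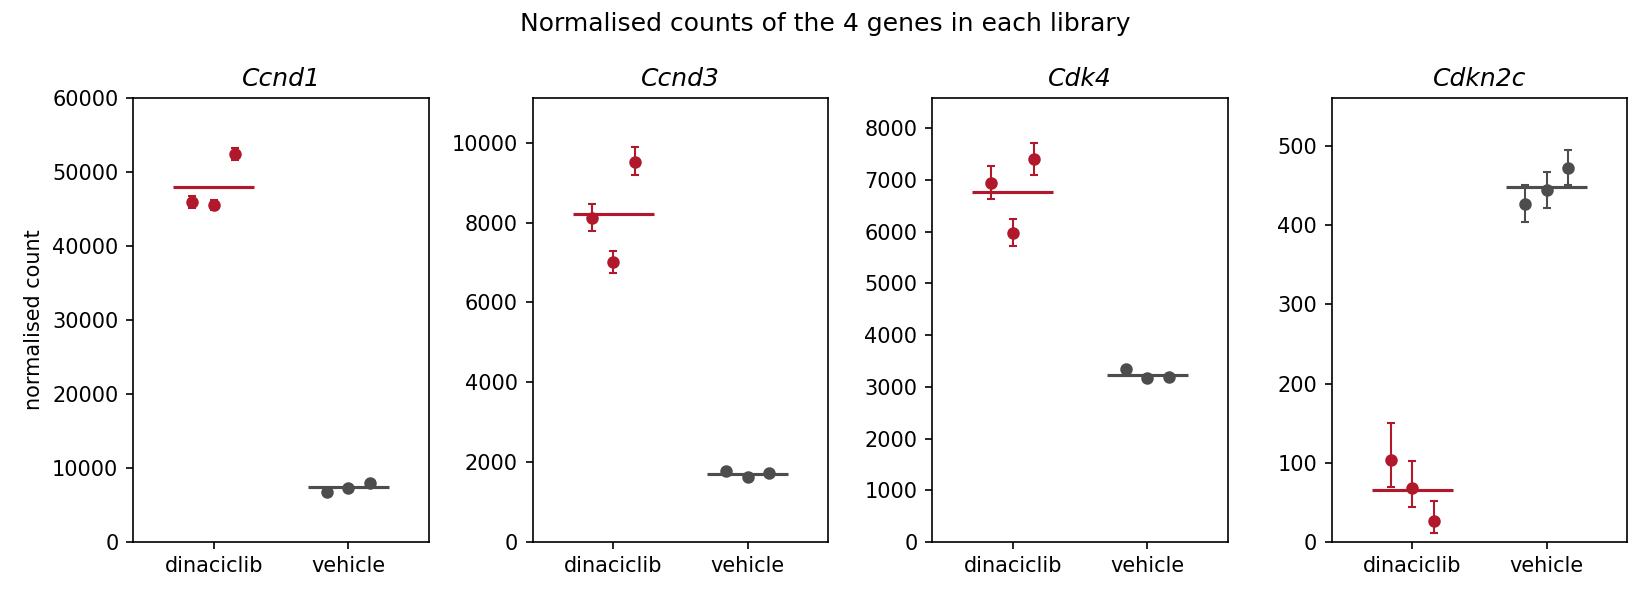
Normalised counts (vertical axis, linear from 0, with its own range in each panel) of Ccnd1, Ccnd3, Cdk4 and Cdkn2c in the 3 dinaciclib libraries (red) and the 3 vehicle libraries (grey). Points are libraries with exact Poisson intervals (95%, counting error only) and horizontal lines are group means; Ccnd1, for example, lies at 45542 to 52424 with dinaciclib and at 6794 to 8022 in vehicle, and no gene has overlapping groups.

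Replicate ranges were separate in 98.4% of the 251 listed genes, with all dinaciclib libraries higher in 24.3% and lower in 74.1%, so the separation seen for the 4 members was that of the table. The order of the dinaciclib libraries was also shared. The second dinaciclib library was the lowest of its group for Ccnd1, Ccnd3 and Cdk4, and for 53 of the 65 listed genes that were higher. The third was the highest for the same 3 members, and for 41 of the 65. The part of the second dinaciclib library in the results is given by the values without it. With replicate 2 of dinaciclib left out, the log2 change was 2.74 for Ccnd1, 2.37 for Ccnd3, 1.15 for Cdk4 and −2.84 for Cdkn2c.

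Among the tested genes the members sat in the middle of the changes, apart from Cdk4. The median log2 change was 2.22 over the 62 higher genes and −2.39 over the 186 lower genes. Ccnd1 ranked 27 and Ccnd3 ranked 31 of the 62 by size of rise, Cdk4 ranked 60, and Cdkn2c ranked 72 of the 186 by size of fall. The median of the 4 members was 1.67, and that of all 248 tested genes was −1.83. TMM factors computed over the listed genes, which take most of them as unchanged, moved the median of all tested genes by 1.37 on the log2 scale. Under them the log2 change was 4.07 for Ccnd1, 3.63 for Ccnd3, 2.44 for Cdk4 and −1.40 for Cdkn2c, the last with adjusted p = 0.0118 (edgeR). With these factors 63 genes passed as higher and 106 as lower, a share of 37.3% higher, against 25% in the fit with the authors' factors. With total counts as library sizes the median moved by 0.13, and the 4 changes were 2.84, 2.40, 1.20 and −2.65. The listed genes took 9.61% to 12.3% of all counts in the dinaciclib libraries, against 2.53% to 2.57% in the vehicle libraries. Every such scale, the authors' factors included, rests on an assumption about the rest of the library. Whether the authors' factors were neutral here was not tested.

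**Figure D2:**
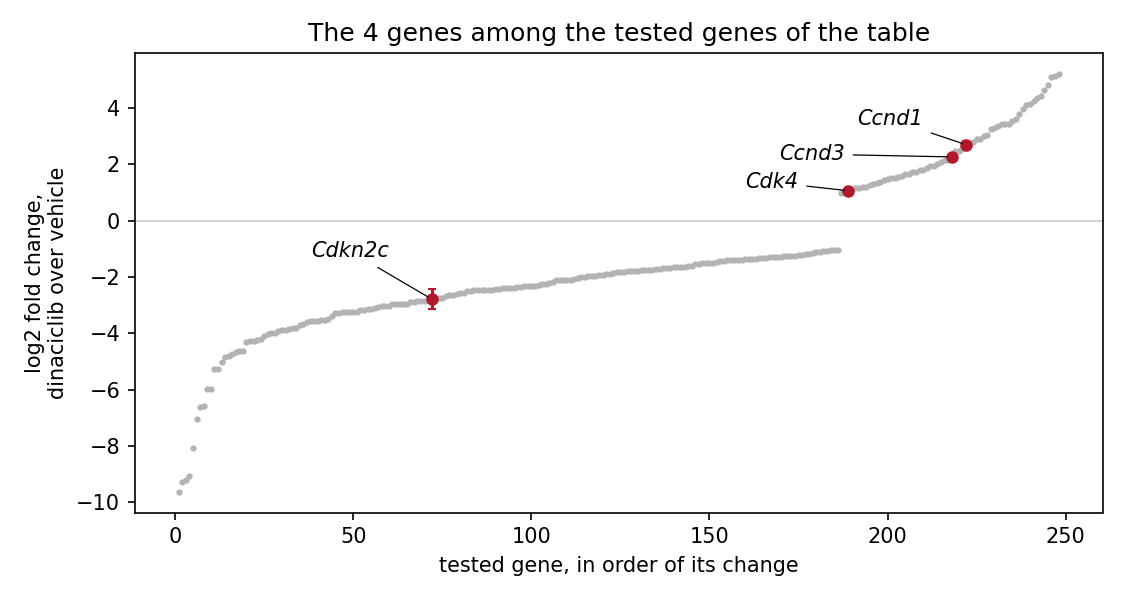
Log2 fold change of dinaciclib over vehicle (vertical axis) for the 248 tested genes, placed in order of their change (horizontal axis), with the 4 members in red and their SE as bars. Ccnd1 (2.70) and Ccnd3 (2.27) lie in the middle of the higher genes, Cdk4 (1.07) at their lower end, and Cdkn2c (−2.78) among the lower genes; the gap around 0 comes from the authors' limit for the table.

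Levels were compared between genes as FPKM, which divides each count by gene length and by the library's total. With dinaciclib the FPKM was 1082 ± 91.5 for Ccnd1, 222 ± 24.9 for Cdk4, 99.6 ± 15.7 for Ccnd3 and 2.61 ± 1.53 for Cdkn2c. In vehicle it was 152 ± 12.9 for Ccnd1, 96.5 ± 2.60 for Cdk4, 18.9 ± 0.745 for Ccnd3 and 16.2 ± 0.857 for Cdkn2c (SD, n = 3 each). On this scale the order was Ccnd1, Cdk4, Ccnd3, Cdkn2c in both groups, and neighbours in that order did not overlap in library ranges; the closest were Ccnd3 (18.0 to 19.5) and Cdkn2c (15.4 to 17.1) in vehicle. The places of Cdk4 and Ccnd3, and the closeness of Ccnd3 to Cdkn2c in vehicle, depend on the length used. The table's gene length is 8775 bases for Ccnd3 and 3249 for Cdk4, while their main annotated transcripts (the longest coding sequence) have 2113 and 2053 bases. Divided by the main transcript in place of the gene, the level of Ccnd3 was 1.14, 1.14 and 1.25 times that of Cdk4 in the dinaciclib libraries, against 0.515, 0.501 and 0.523 times in the vehicle libraries. By that length Ccnd3 thus stood above Cdk4 in all dinaciclib libraries and below it in all vehicle libraries; which transcripts the cells made was not measured. With main transcript lengths the vehicle level was 78.3 ± 3.10 for Ccnd3 and 17.6 ± 0.932 for Cdkn2c (SD, n = 3 each), far apart. Among the 251 listed genes, by FPKM with the table's lengths, Ccnd1 ranked 5 in both groups. Ccnd3 ranked 29 with dinaciclib and 62 in vehicle, while Cdk4 ranked 20 with dinaciclib and 9 in vehicle, below its vehicle rank although its own level was higher. Cdkn2c ranked 121 with dinaciclib and 77 in vehicle.

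Ratios between members within a library do not depend on how libraries are scaled, and they show how the balance of cyclin, kinase and inhibitor messages differed. The ratio of Ccnd1 to Cdk4 FPKM was 4.56, 5.25 and 4.88 in the dinaciclib libraries, against 1.40, 1.59 and 1.73 in the vehicle libraries, a difference of 1.64 on the log2 scale. The cyclin D1 message thus exceeded that of its kinase in every library, by more with dinaciclib, and did so with main transcript lengths too. The ratio of Ccnd3 to Cdk4 was 0.433, 0.434 and 0.476 with dinaciclib, against 0.196, 0.191 and 0.199 in vehicle, a difference of 1.20 on the log2 scale. The differences between groups do not depend on gene length, which cancels, but the ratios themselves do: with main transcript lengths Ccnd3 exceeded Cdk4 with dinaciclib, as given above.

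Cdk4 exceeded Cdkn2c in FPKM by 55.4, 72.2 and 234 times in the dinaciclib libraries, against 6.48, 5.90 and 5.59 times in the vehicle libraries. The ratio of Cdkn2c to Cdk4 was thus 4.03 lower on the log2 scale with dinaciclib, a fall of 16.4-fold, and its size rests on the 60 Cdkn2c reads of that group. Between the cyclins the difference was small: Ccnd1 to Ccnd3 was 10.5, 12.1 and 10.2 with dinaciclib, against 7.15, 8.32 and 8.68 in vehicle, or 0.45 on the log2 scale. For each of these 4 ratios the groups did not overlap, and the exact two-sided permutation test gave p = 0.1, also after Benjamini-Hochberg adjustment over the 4. That is the smallest p that 3 against 3 libraries allow, so none could pass 0.05. Taken singly, 98.4% of the 251 listed genes also had separate groups. Ratios of other listed genes were not examined, so the separation is not shown to be particular to these pairs.

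**Figure D3:**
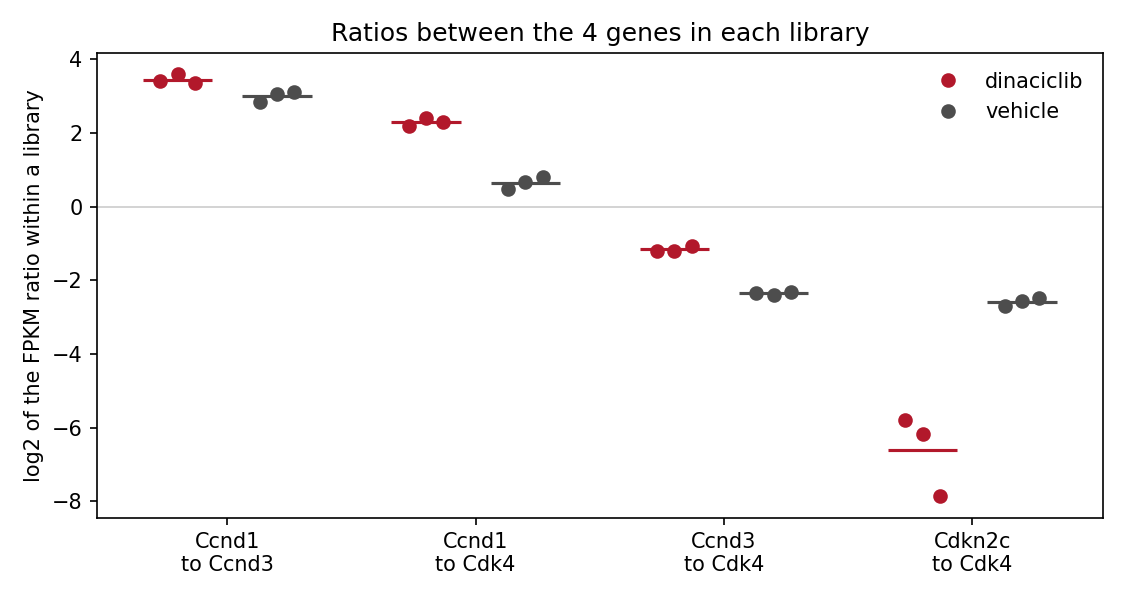
Log2 of the ratio of FPKM values between pairs of members in each library (vertical axis), for dinaciclib (red) and vehicle (grey); points are libraries and short lines are group means. Ccnd1 to Cdk4 and Ccnd3 to Cdk4 lie higher with dinaciclib by 1.64 and 1.20, Ccnd1 to Ccnd3 by 0.45, and Cdkn2c to Cdk4 lies lower by 4.03.

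Parts of 3 members are shared with a gene on the opposite strand. In GENCODE M21, Ccnd1 shares 1100 of 4709 exonic bases (23.4%) with LTO1, Cdk4 shares 641 of 3249 (19.7%) with Tspan31, and Ccnd3 shares 361 of 8775 (4.11%) with Bysl. The library protocol leaves no strand mark, so that reads there cannot be assigned to a strand, and how the authors' counting treated them is not given in the sources used here. None of these partners was in the table, and their part in the rises was not tested. Cdkn2c overlaps no other annotated gene. Apart from these overlaps, no transcript of another gene matched a member's main transcript over 200 bases at 90% identity or more.

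Sequences before annotated start sites are shown for 3 members, of which Cdk4 and Ccnd3 rose and Cdkn2c fell. Whether these sequences bear on the changes was not tested. RefSeq starts of the same build as the table's coordinates (GRCm38.p6) were found for Cdk4, Ccnd3 and Cdkn2c, and not for Ccnd1. Capitals mark the E-box CACGTG, the site of MYC and related factors, which reads the same on both strands. Bases annotated as exon were left out, and so was the outer Cdkn2c window, which lies wholly in an exon. The window of the inner Ccnd3 start (chr17:47593217-47593435) was searched as well but is not printed. For Cdkn2c the outer start used (109666756) lies inside the gene, whose annotated 5′ end is 109667189. The bases before that end were not searched for any motif. Which start the cells used was not measured.
Cdk4 (chr10:127063285-127063533, plus strand): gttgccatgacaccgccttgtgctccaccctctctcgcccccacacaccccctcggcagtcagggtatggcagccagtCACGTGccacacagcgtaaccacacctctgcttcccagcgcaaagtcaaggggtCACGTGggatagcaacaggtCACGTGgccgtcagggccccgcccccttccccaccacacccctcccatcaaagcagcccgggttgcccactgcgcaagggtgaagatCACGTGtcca
Ccnd3, outer start (chr17:47504801-47505050, plus strand): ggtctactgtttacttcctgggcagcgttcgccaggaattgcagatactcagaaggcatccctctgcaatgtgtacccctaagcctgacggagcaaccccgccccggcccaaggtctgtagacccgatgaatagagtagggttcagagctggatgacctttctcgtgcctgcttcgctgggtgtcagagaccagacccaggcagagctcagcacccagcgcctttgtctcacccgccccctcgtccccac
Cdkn2c, inner start (chr4:109665373-109665609, minus strand): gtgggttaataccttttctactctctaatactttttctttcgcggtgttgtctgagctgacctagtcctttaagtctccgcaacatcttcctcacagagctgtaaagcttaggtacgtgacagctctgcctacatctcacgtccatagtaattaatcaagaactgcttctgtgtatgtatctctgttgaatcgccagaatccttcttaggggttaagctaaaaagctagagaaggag

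In the 250 bases before its start Cdk4 held 4 E-boxes, beginning 172, 118, 98 and 11 bases before it. No E-box was found in the windows of either Ccnd3 start or either Cdkn2c start used here. Of all 32851 windows of that length in the table, 6.02% held at least 1. The GC box GGGCGG, searched on both strands, was found 1 time for Cdk4, 2 times for the outer and 1 time for the inner Ccnd3 start, 3 times for the outer and 0 times for the inner Cdkn2c start, and in 32.7% of all windows. The letters of the CRE (TGACGTCA), of an AP-1 site (TGANTCA) and of an E2F site (TTTNNCGC) were in none of these 5 windows on either strand, and in 1.55%, 6.75% and 4.28% of all windows. A match in letters is a description and says nothing of binding.

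Other genes of G1 control were few in the table, which lists only changed genes with an entry for a tumour type, so a gene that is not listed is not reported as unchanged. Of 3 D cyclin genes, 2 were listed and rose (Ccnd1 and Ccnd3). Of the 3 G1 and S kinase genes, 1 was listed and rose (Cdk4), and of 7 genes for INK4 and CIP/KIP inhibitors, 1 was listed and fell (Cdkn2c). Neither of the 2 E cyclin genes, none of 13 Rb and E2F genes and none of 12 genes for transcriptional cyclins and kinases was listed. Of 13 genes gathered here under D cyclin turnover 1 was listed: Fbxw7, which encodes a substrate receptor of an SCF ubiquitin ligase. It fell to 115 ± 22.9 normalised counts with dinaciclib, against 279 ± 11.6 in vehicle, with a log2 change of −1.29. Whether its product acts on D cyclins in these cells was not measured. Of 16 genes for S, G2 and M cyclins, kinases and their partners 1 was listed: Bub1b, a spindle checkpoint kinase gene, fell to 229 ± 83.8 normalised counts with dinaciclib, against 633 ± 15.6 in vehicle, with a log2 change of −1.48. Both lost their call with TMM factors, where the log2 change was 0.08 for Fbxw7, with a change of sign, and −0.11 for Bub1b.

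Of 23 transcription factor genes known to act upstream of D cyclins, 7 were listed and tested, of which 2 rose and 5 fell (Stat5b and Nfkb2 changed sign with TMM factors). That split is near the table's own, with 25% higher and 75% lower. The 7 genes had a median log2 change of −1.35 against −1.83 over all tested genes. Jun, an AP-1 subunit that drives Ccnd1 in many cells, had 7691 to 9139 normalised counts with dinaciclib, against 1442 to 1571 in vehicle. Its log2 change was 2.49 with SE 0.09. Etv4, an ETS factor gene, rose by 1.94 on the log2 scale, with 3741 to 4304 normalised counts with dinaciclib and 1035 to 1104 in vehicle. Its relative Etv5 fell, with a log2 change of −3.24, and had 36.0 to 68.5 normalised counts with dinaciclib, against 474 to 510.0 in vehicle.

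Stat3, a cytokine signal transducer gene, fell with a log2 change of −1.98, and Stat5b and Nfkb2 fell with changes of −1.35 each. Stat5b and Nfkb2 lost their call and changed sign with TMM factors, at 0.04 and 0.03. Mycn, a MYC family gene, also passed as lower, with 2 reads in 1 dinaciclib library and 0 in the other two, against 57.98 to 69.2 normalised counts in vehicle. Higher Ccnd1 and Ccnd3 thus stood beside higher Jun and Etv4 and lower Stat3, Etv5 and Mycn in the same libraries.

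**Figure D4:**
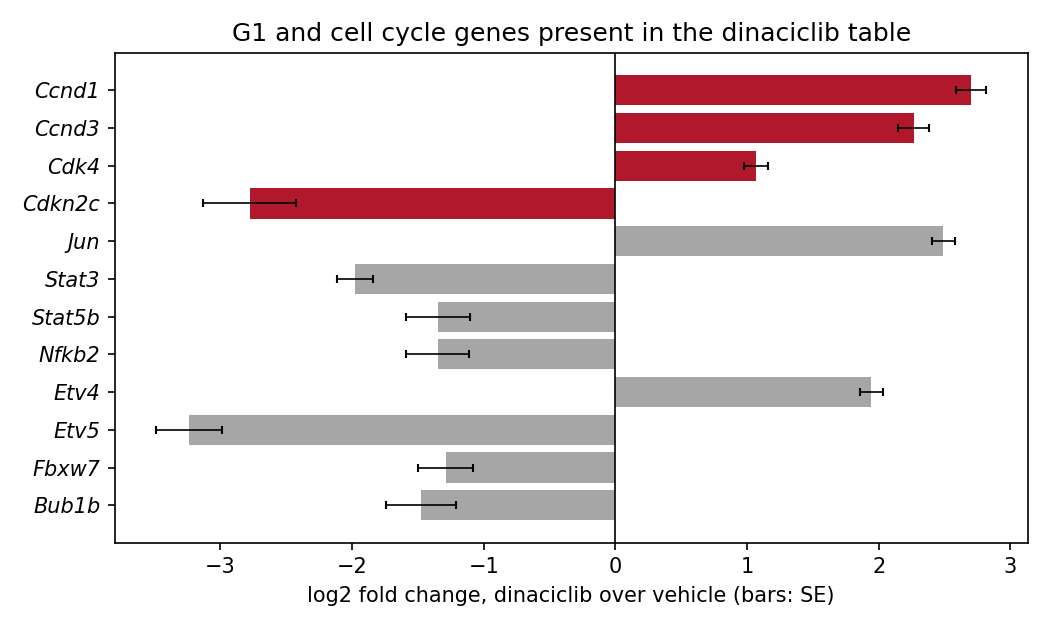
Log2 fold change of dinaciclib over vehicle (horizontal axis, SE as bars) for the genes of the G1, cell cycle and upstream lists that were in the table, with the 4 members in red and the others in grey. Ccnd1, Ccnd3, Cdk4, Jun (2.49) and Etv4 (1.94) lie to the right of 0 and the others to the left, such as Etv5 (−3.24), of which Stat5b, Nfkb2 and Fbxw7 changed sign with TMM factors; Mycn, with 2 reads in the dinaciclib group, is not drawn.

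The endothelial label could be checked on 5 of 16 markers, 4 from the dinaciclib table and 1 from the MGH-CP1 table, which holds the same vehicle libraries. Kdr had 90.3 FPKM in vehicle cells, Fli1 32.0, Notch1 19.4 and Gata2 9.11. Vwf, the gene for von Willebrand factor, was near 0, with 0.141, 0.171 and 0.134 FPKM in the vehicle libraries. All 4 markers of the dinaciclib table passed as lower, as did 75% of the tested genes. Their median log2 change was −2.60, against −2.39 over all 186 lower genes, so their fall was that of the table; for Fli1 the change was −2.88, or −3.70 without dinaciclib replicate 2.

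Of 14 markers of other cell types none was in the dinaciclib table, and their levels with dinaciclib were not analysed here. Vehicle levels of 2 of them, both of myeloid cells, were in the table for MGH-CP1. Lyz2 had 5.53, 4.63 and 5.07 FPKM in the vehicle libraries, and Cd68 had 0.250, 0.512 and 0.278. The part of such cells in the results for the 4 members was not tested.

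The listed genes closest to each member in pattern were found by the root mean square difference of log2(normalised count + 1), centred on each gene's vehicle mean, over the 6 libraries. This distance takes in the difference in log2 change, so genes near a member have a similar change by construction. Shared control was not tested. For Ccnd1 the closest genes were Sdc4 (0.0866), Sbds (0.114) and Fgfr1op (0.164), with log2 changes of 2.71, 2.80 and 2.91. Sdc4 encodes the cell surface proteoglycan syndecan-4 and Sbds a factor of ribosome maturation. For Ccnd3 they were Rpl22 (0.0803), Hsp90aa1 (0.108) and Ewsr1 (0.148), with changes of 2.17, 2.16 and 2.09.

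For Cdk4 the closest were Traf7 (0.0880), Atic (0.112), an enzyme gene of purine synthesis, and Akt2 (0.114), with log2 changes of 1.15, 1.21 and 1.05. For Cdkn2c they were Msh6 (0.247), a mismatch repair gene, Numa1 (0.344), which encodes a protein of the spindle poles, and Rara (0.344), a retinoic acid receptor gene, with changes of −2.74, −3.11 and −2.57. The distances were larger for Cdkn2c than for the other members, whose counts were higher.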

How the data were processed

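RNA of EHE17 cells was selected on poly-T beads and copied with random primers, per the labels' protocols. The submitters' processing notes name fastp, then HISAT2 (2.0.5), featureCounts (1.5.0-p3) and also DESeq2 (1.20.0); the build is not given in the sources used here. GRCm38 was taken for coordinates, since all 251 gene identifiers are in GENCODE M21 and 242 have the same start and end there. Per the file headers, the authors deposited raw counts, FPKM, a normalised signal, log2 fold changes, p-values and gene lengths. On the values, the deposited signal equals the count over a constant of its library (the size factor), and counts and FPKM give each library's total; these constants were the same for 100% of non-zero values at a relative tolerance of 1e-06.

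The deposited counts were fitted with edgeR 4.0.16 (R 4.3.3, quasi-likelihood test, two-sided, filterByExpr with a minimum count of 10) over the whole table, 3 dinaciclib against 3 vehicle libraries, with the authors' size factors as library scale, no covariate and Benjamini-Hochberg adjustment over the 248 tested genes. The SE is the log2 change over the root of the F statistic. Ratios were tested by exact permutation (scipy 1.17.1). Transcripts were aligned with minimap2 2.31-r1302. The fit was also run on simulated data with the same spread set for every gene, unlike the real libraries, so no conclusion is drawn from that run. The members, the 11 gene lists and the rule for named genes (the members, every listed gene found in a table, and the 3 genes nearest to each member in pattern) were chosen with earlier results of these data known. Replicates of a group differed by more than sampling noise (chi-square 5.28 to 13.5 times its degrees of freedom). The labels call them biological but do not say what was separate, so p-values set the group difference against the spread between these samples only. In the edgeR fit that spread was estimated with the help of all tested genes, which the authors had picked on these same libraries. Intervals cover counting error only. Figures were drawn with matplotlib 3.10.9.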

Additional observations from a re-analysis of the deposited data

How the results depend on the processing

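All 48 alternative tests of the 4 log2 changes kept their direction and an adjusted p under 0.05. Most listed genes passed as well: 236 of 236 after thinning, 240 of 248 with the replicate block and 169 of 248 with TMM factors. The authors had listed these genes on the same libraries, so the 48 passes are no independent evidence. The 36 alternative values of the ratio differences kept their direction; their p could not pass 0.05 in this design, so it says nothing of stability. The 13 alternative counts of called genes, 169 to 251, stayed within 1.5 times of 248. The alternatives were TMM factors, total counts as library sizes, DESeq2 1.42.0 with the same size factors, no count filter, vehicle counts thinned to the mean dinaciclib depth, the replicate number as a block and leaving out each replicate; a threshold of 0.01 was tried for the count of called genes alone, and counts in place of FPKM for the ratios. With 1 replicate left out, the log2 change of Ccnd1 was 2.63 to 2.77 and that of Ccnd3 2.15 to 2.37. That of Cdk4 was then 0.997 to 1.15 and that of Cdkn2c −3.20 to −2.41. The largest adjusted p over all alternatives was 1.33e-05 for Ccnd1, 3.26e-05 for Ccnd3, 0.000267 for Cdk4 and 0.0118 for Cdkn2c (edgeR or DESeq2 with Benjamini-Hochberg adjustment).

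No pairing by replicate number was seen in the values. Deviations of same-numbered libraries correlated at 0.02, −0.03 and −0.14 across genes, and no dinaciclib library correlated best with its own number. With 3 libraries in each group this cannot settle whether same-numbered samples were handled together. With the replicate block the log2 changes were 2.70, 2.26, 1.06 and −2.86 for Ccnd1, Ccnd3, Cdk4 and Cdkn2c, and 240 genes were called. For the ratios, the block gave the same differences (0.45, 1.64, 1.20 and −4.03), with p = 0.25 by an exact sign-flip test, the smallest that 3 pairs allow. Leaving out replicates gave 0.36 to 0.50 for Ccnd1 to Ccnd3, 1.56 to 1.71 for Ccnd1 to Cdk4, 1.15 to 1.22 for Ccnd3 to Cdk4 and −4.44 to −3.40 for Cdkn2c to Cdk4. Depth limits Cdkn2c most, with 60 reads in the dinaciclib group. Thinned to that depth, its vehicle libraries still held 130 to 145 reads, and its log2 change was −2.91. With main transcript lengths, an alternative chosen after seeing the data, the level of Ccnd3 relative to Cdk4 turned to 0.23 on the log2 scale with dinaciclib, against −1.16 by FPKM, and moved to −0.96 in vehicle, against −2.36 by FPKM; the change of length alone gives this shift.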

Other observations

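The members differ in how they are built. In the genome Cdk4 spans 4387 bases, Cdkn2c 6314, Ccnd1 9995 and Ccnd3 94641. The median span was 21884 bases over 63 higher genes of the table with an annotated 3′ UTR and 47125 over 183 lower ones. Of the 63 higher genes only 4 were shorter than Cdk4 and 18 shorter than Ccnd1, while 53 were shorter than Ccnd3. The span of Ccnd3 is counted from its outer start. An inner start is annotated at 47593467, near the gene's end at 47599691. Which start the cells used was not measured, so the place of Ccnd3 among long genes depends on that choice. Cdkn2c was among the short genes of its direction, with 11 of the 183 shorter.

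The main transcripts have 5 exons for Ccnd1, 7 for Ccnd3, 8 for Cdk4 and 3 for Cdkn2c, against a median of 12.5 over the 246 listed genes examined. The 3′ UTR of Ccnd1 is 2676 bases long and holds 5 copies of the AU-rich pentamer ATTTA, a sequence known from unstable messages, or 1.87 per kilobase. Those of Ccnd3 (907 bases), Cdk4 (899 bases) and Cdkn2c (373 bases) hold 1 copy each, or 1.10, 1.11 and 2.68 per kilobase. The median was 0.880 per kilobase over the higher genes and 1.54 over the lower genes. These are descriptions of 4 genes, and no relation between structure and change was tested.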
